A study of Mus musculus with 6 samples.

Results

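Hyaluronan and heparan sulfate are long sugar chains of the extracellular matrix (ECM) and the cell surface, and 10 genes of their biology were followed here in fat cells. The genes were the hyaluronan synthase Has2, the hyaluronan-binding proteoglycan Vcan, the hyaluronan receptor Cd44, the syndecans Sdc1, Sdc2 and Sdc4, the glypicans Gpc1 and Gpc3, and the secreted heparan sulfate proteoglycans Hspg2 and Agrn. They were chosen by symbol with earlier results of these data known. All 10 were present among the 37384 gene symbols of the count table. All 10 passed the filter on low counts, which kept 15674 genes. RNA was sequenced from floated adipocytes of inguinal subcutaneous white adipose tissue (scWAT) of male mice at postnatal day 7, in 6 libraries that each pooled 4 mice. The 3 L1L2-FF libraries came from mice with the genotype Lats1f/fLats2f/f, whose Lats1 and Lats2 alleles are floxed and intact. The 3 L1L2-AKO libraries came from mice with the genotype Lats1f/fLats2f/fAdipoqCre, which carry the same floxed alleles and, in addition, a Cre recombinase driven by the Adipoq promoter, active in mature adipocytes. The L1L2-FF mice were littermates without Cre, so the comparison does not separate loss of Lats1 and Lats2 from the presence of Cre.

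LATS1 and LATS2 are the kinases of the Hippo pathway that restrain the coactivators YAP and TAZ. Hyaluronan is spun out through the plasma membrane by hyaluronan synthases, is free of sulfate and has no core protein, whereas heparan sulfate is built on core proteins and then sulfated in the Golgi. Syndecans carry heparan sulfate on a transmembrane core, glypicans on a lipid-anchored core, and perlecan (the product of Hspg2) and agrin within basement membranes. In adipose tissue (AT), each adipocyte is wrapped in a basement membrane that holds perlecan, and heparan sulfate chains at the cell surface bind growth factors and lipoprotein lipase.

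The targeted genes were examined for each label. Lats1 ranged from 76.1 to 94.3 CPM (counts scaled to library size after TMM normalization) in L1L2-FF and from 38.9 to 41.2 CPM in L1L2-AKO, a log2 fold change of -1.04. Lats2 went against the label, with 68.5 to 85.7 CPM in L1L2-FF and 96.2 to 135.4 CPM in L1L2-AKO, a log2 fold change of 0.64. By quantitative PCR, the paper reports reduced mRNA of both Lats1 and Lats2 in scWAT adipocytes of L1L2-AKO mice of this age. Counts summed over the whole of Lats2 hide whether its floxed exons were lost, and 41.2% of its 50-base stretches also occur in the transcript Gm49361. The groups are therefore named as labelled throughout. Total counts per library ranged from 30548473 to 32107917.

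Among the 10 genes, 3 were called higher in the libraries labelled L1L2-AKO (Has2, Cd44 and Sdc2) and 0 were called lower by edgeR's quasi-likelihood test at a Benjamini-Hochberg adjusted p under 0.05. Over all genes tested, the same rule called 9.28% higher and 7.18% lower. At an unadjusted p under 0.05, 4 of the 10 were higher and 0 lower. DESeq2 called 4 higher and 0 lower, and limma-voom 2 higher and 0 lower. The median log2 fold change of the 10 genes was 0.19, beside -0.02 over all genes tested. The 3 values of each genotype did not overlap for 4 genes, all higher (Has2, Cd44, Sdc2 and Hspg2). Such separation was found in 36.4% of all genes tested, upward in 18% and downward in 18.4%. In bulk RNA, fewer cells of a type cannot be told apart from less RNA per cell.

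**Figure D1:**
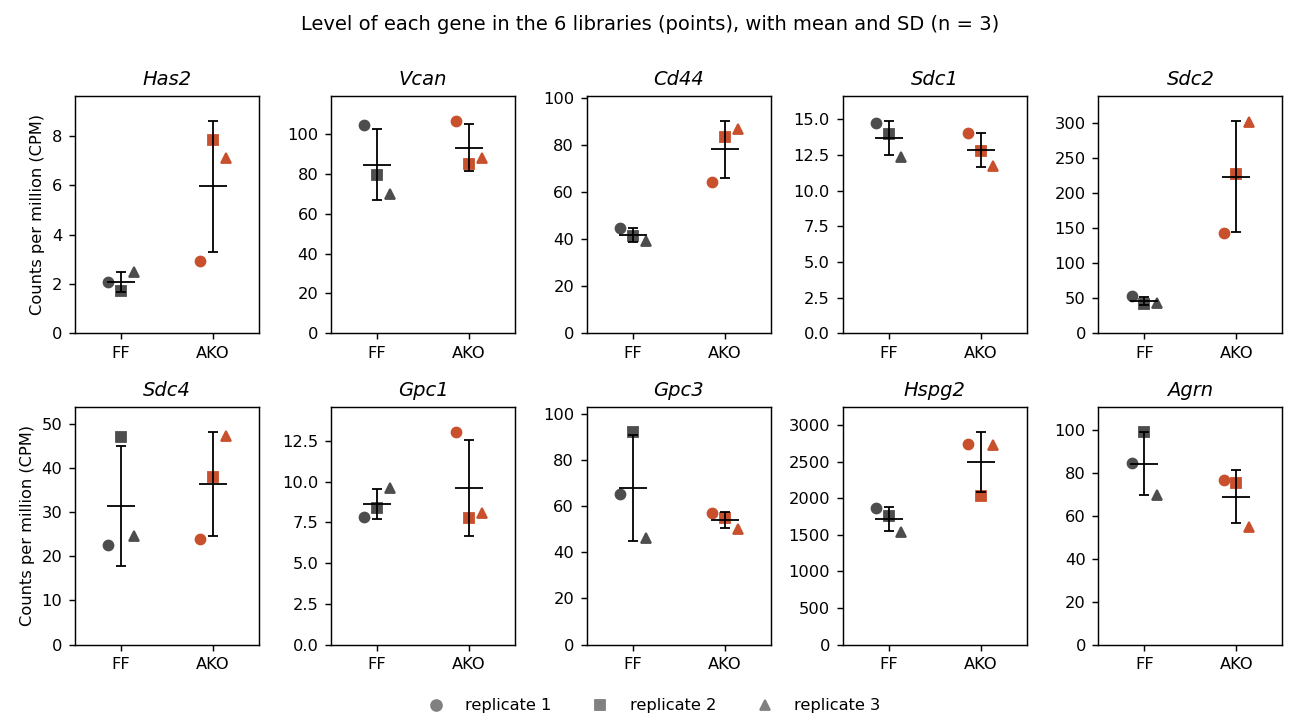
Level of each of the 10 genes (CPM, linear axis from 0) in the L1L2-FF libraries (grey, FF) and the libraries labelled L1L2-AKO (red, AKO), with 1 point per library and the mean and SD of 3 libraries in black. Sdc2, Cd44, Has2 and Hspg2 separate the genotypes without overlap, and the other 6 genes overlap.

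Per length of exon, the 10 genes covered a wide range in adipocytes. On the TPM scale (counts divided by annotated exon length and scaled to an equal total per library), Hspg2 led in L1L2-FF at 350 ± 43.7 (SD, n = 3). It was followed by Gpc3 at 73.9 ± 29.3, Sdc2 at 37.6 ± 4.12, Sdc4 at 36.3 ± 18.0, Agrn at 26.4 ± 6.02, Cd44 at 17.9 ± 1.60, Vcan at 17.0 ± 3.58, Sdc1 at 10.4 ± 1.24, Gpc1 at 4.84 ± 0.454 and Has2 at 1.42 ± 0.196 TPM. Neighbours in this order whose libraries overlapped were Sdc2 and Sdc4, Sdc4 and Agrn, and Cd44 and Vcan. In the libraries labelled L1L2-AKO, Hspg2 again led at 537 ± 96.3 TPM, and Sdc2 came next at 191 ± 54.1 TPM, above Gpc3 at 61.9 ± 8.81 TPM.

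Has2 encodes the hyaluronan synthase that makes most hyaluronan in mesenchymal cells, and lies at chr15:56665627-56694539 on the minus strand (mm10). It was the least abundant of the 10, at 2.07, 1.70 and 2.48 CPM in L1L2-FF libraries 1 to 3 (65, 55 and 77 counts). The libraries labelled L1L2-AKO held 2.93, 7.83 and 7.12 CPM (97, 247 and 204 counts). All 3 exceeded every L1L2-FF library, but the lowest of them stood much closer to L1L2-FF than to the other 2. The log2 fold change was 1.51 (SE 0.378, 95% confidence interval 0.64 to 2.38), with an adjusted p of 0.0308 by edgeR's quasi-likelihood test. This call depended on single libraries. Leaving out an L1L2-FF library gave edgeR adjusted p values of 0.104 (replicate 1), 0.0639 (replicate 2) and 0.0544 (replicate 3), and leaving out L1L2-AKO replicate 2 or 3 gave 0.116 or 0.105. Without L1L2-AKO replicate 1 the log2 fold change was 1.84 and the edgeR adjusted p 0.00377. The antisense gene Has2os shares 2.1% of the 50-base stretches of Has2 and had at most 28 counts in any library, and the strand setting of the counting was not given in the sources used here.

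Vcan encodes versican, a large chondroitin sulfate proteoglycan that binds hyaluronan and swells the provisional matrix (chr13:89655312-89742509, minus strand). Its level was 104.6, 79.8 and 69.8 CPM in the L1L2-FF libraries and 106.7, 84.8 and 88.2 CPM in those labelled L1L2-AKO. The genotypes overlapped, and the log2 fold change of 0.14 (SE 0.170, 95% confidence interval -0.25 to 0.53) was not called, with an edgeR adjusted p of 0.643.

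Cd44 encodes the main cell surface receptor for hyaluronan, which adipose stromal and immune cells also carry (chr2:102811141-102901665, minus strand). It was at 44.7, 41.3 and 39.1 CPM in the L1L2-FF libraries. Those labelled L1L2-AKO held 64.4, 83.3 and 86.8 CPM. The L1L2-FF libraries were tight and all lay below the lowest L1L2-AKO library. The rise was 1.87-fold (log2 fold change 0.91, SE 0.138, 95% confidence interval 0.59 to 1.23, edgeR adjusted p 0.00433). Summed macrophage markers lay between 282 and 556 CPM in L1L2-FF and between 1025 and 1140 CPM in the same libraries labelled L1L2-AKO, with 11 of 12 markers called higher, and their part in the Cd44 value was not tested.

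The syndecans are transmembrane proteins whose outer part differs between members and whose short cytoplasmic tail is alike. The last 60 coding bases of the 4 mouse syndecan transcripts, read from GENCODE M21 with the stop codon at the end, are shown because they hold the conserved end of that tail and bear on whether reads of Sdc2 could be counted for another member. Capitals mark the 14 bases that all 4 share, most of them in the final codons, which encode the ending that binds PDZ domain proteins.
Sdc1: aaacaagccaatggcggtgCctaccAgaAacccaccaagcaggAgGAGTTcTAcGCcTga
Sdc2: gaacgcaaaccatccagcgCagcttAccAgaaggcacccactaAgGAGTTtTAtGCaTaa
Sdc3: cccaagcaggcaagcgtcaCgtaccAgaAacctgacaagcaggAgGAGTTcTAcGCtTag
Sdc4: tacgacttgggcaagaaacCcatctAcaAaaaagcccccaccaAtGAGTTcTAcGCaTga
In this stretch the pairs were identical at 36.7% to 63.3% of bases, and the longest run that any pair of these 4 transcripts shared along its whole length was 29 bases. Sdc2 shared at most 14 bases in a row with another syndecan.

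Sdc2 encodes syndecan-2, the syndecan typical of mesenchymal cells (chr15:32920723-33034935, plus strand). It was at 52.5, 41.5 and 43.7 CPM in L1L2-FF, whereas the 3 libraries labelled L1L2-AKO held 142.6, 226.3 and 300.8 CPM. The lowest L1L2-AKO library was well above the highest L1L2-FF library, and the L1L2-AKO libraries also differed widely among themselves. The rise was 4.86-fold (log2 fold change 2.28, SE 0.261, 95% confidence interval 1.68 to 2.88, edgeR adjusted p 0.00139), the largest of the 10 genes. Leaving out each library in turn gave log2 fold changes from 2.01 to 2.52.

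Sdc1 encodes syndecan-1, best known from epithelia and plasma cells (chr12:8771323-8793715, plus strand). It was at 14.7, 14.0 and 12.4 CPM in the L1L2-FF libraries and 14.1, 12.8 and 11.7 CPM in those labelled L1L2-AKO. The groups lay on top of each other, with a log2 fold change of -0.09 (95% confidence interval -0.42 to 0.24, edgeR adjusted p 0.729).

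Sdc4 encodes syndecan-4, which acts with integrins in focal adhesions (chr2:164424247-164443887, minus strand). It was at 22.5, 47.2 and 24.6 CPM in the L1L2-FF libraries and 24.0, 38.0 and 47.3 CPM in those labelled L1L2-AKO. Both groups spread about as far as each other and overlapped. The log2 fold change of 0.21 (SE 0.328, 95% confidence interval -0.54 to 0.97, edgeR adjusted p 0.720) was not called, and it turned to -0.01 without L1L2-AKO replicate 3. L1L2-FF replicate 2, the highest of its group for Sdc4, also held the most macrophage, T and B cell, progenitor and Schwann cell marker RNA of its group, and the part of these cells was not tested.

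The make-up of the family was then computed in each library. With Sdc3 included and counts divided by exon length, Sdc2 made up 39.8%, 27.1% and 38.6% of syndecan transcripts in L1L2-FF, and in the libraries labelled L1L2-AKO it made up 60.6%, 68.1% and 74.1%. The share of Sdc4 went from 32.1% ± 9.65 to 15.4% ± 1.08 (SD, n = 3), that of Sdc3 from 23.0% ± 2.71 to 13.1% ± 6.34 and that of Sdc1 from 9.64% ± 1.03 to 3.92% ± 1.46. None of the 4 shares overlapped between genotypes, and each gave an exact two-sided permutation p of 0.1, the smallest that 3 against 3 libraries can give. The family sum was 110 ± 22.6 TPM in L1L2-FF and 279 ± 53.6 TPM in the libraries labelled L1L2-AKO. A share falls when another member rises, so these 4 shares are not separate results.

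**Figure D2:**
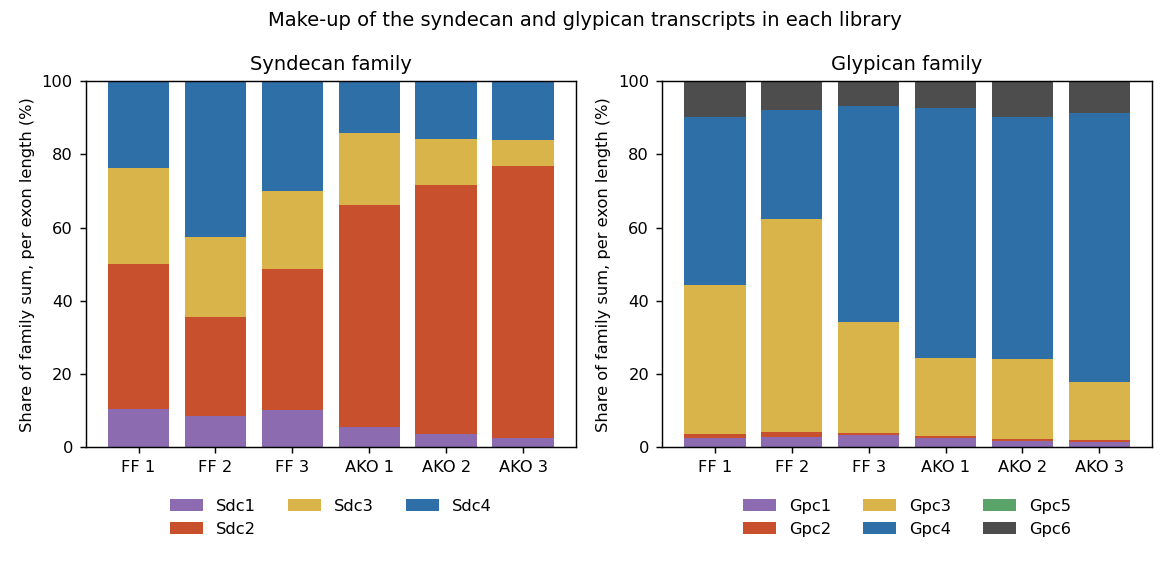
Share of each member in the summed syndecan (left) and glypican (right) transcripts of each library, in percent of counts divided by exon length, with L1L2-FF libraries as FF and libraries labelled L1L2-AKO as AKO. The Sdc2 share is 27.1% to 39.8% in FF and 60.6% to 74.1% in AKO. Gpc4 takes the largest glypican share in all AKO libraries and also in FF 1 and FF 3, whereas Gpc3 does so in FF 2.

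Glypicans are held in the membrane by a lipid anchor, and Gpc1, a coreceptor for fibroblast growth factors, and Gpc3, which binds Hedgehog ligands, were followed. Gpc1 (chr1:92831645-92860779, plus strand) was at 7.85, 8.38 and 9.64 CPM in the L1L2-FF libraries and 13.0, 7.74 and 8.10 CPM in those labelled L1L2-AKO. Only L1L2-AKO replicate 1 lay above the L1L2-FF range. The log2 fold change of 0.16 (95% confidence interval -0.37 to 0.69, edgeR adjusted p 0.698) turned to -0.12 without that library. Gpc1 shares 18.0% of its 50-base stretches with Ankmy1 on the opposite strand, which had 2 to 14 counts per library, so its value is uncertain to that extent.

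Gpc3 (chrX:52272426-52613950, minus strand) was at 65.3, 91.9 and 46.0 CPM in the L1L2-FF libraries and 57.0, 54.8 and 49.96 CPM in those labelled L1L2-AKO. The L1L2-FF libraries spread on either side of the narrow L1L2-AKO range. The log2 fold change was -0.33 (SE 0.226, 95% confidence interval -0.85 to 0.19, edgeR adjusted p 0.376), and it was -0.05 without L1L2-FF replicate 2, the library noted above for its marker sums. As a share of glypican transcripts per exon length, Gpc3 was at 43.0% ± 14.3 in L1L2-FF and 19.7% ± 3.29 in the libraries labelled L1L2-AKO, while Gpc4 was at 44.8% ± 14.8 and 69.2% ± 3.81. Both differences gave an exact two-sided permutation p of 0.1, the smallest possible. The glypican sum was 169 ± 11.5 TPM in L1L2-FF and 316 ± 23.1 TPM in the libraries labelled L1L2-AKO. As with the syndecans, a share falls when another member rises, so the glypican shares are not separate results. Gpc1 made up 2.87% ± 0.381 and 1.83% ± 0.629 (exact permutation p of 0.1, and 0.2 on counts not divided by length).

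Hspg2, which encodes perlecan, lies at chr4:137468769-137570630 on the plus strand. It was the most abundant of the 10 genes, at 1867, 1762 and 1546 CPM in the L1L2-FF libraries. Those labelled L1L2-AKO held 2742, 2032 and 2727 CPM. All L1L2-AKO libraries lay above all L1L2-FF libraries, but the log2 fold change of 0.54 (SE 0.190, 95% confidence interval 0.10 to 0.97) did not pass the threshold, with an edgeR adjusted p of 0.0949. DESeq2 gave a log2 fold change of 0.55 and an adjusted p of 0.0129, and the edgeR adjusted p ranged from 0.0932 to 0.223 when each library was left out in turn.

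Agrn encodes agrin, a basement membrane proteoglycan best known for clustering acetylcholine receptors at the neuromuscular junction (chr4:156165290-156197488, minus strand). It was at 84.2, 98.6 and 69.4 CPM in the L1L2-FF libraries and 76.4, 75.3 and 54.8 CPM in those labelled L1L2-AKO. The genotypes overlapped, and the log2 fold change was -0.29 (SE 0.176, 95% confidence interval -0.69 to 0.12, edgeR adjusted p 0.317). Perlecan and agrin, both of the basement membrane, had fold changes of opposite sign, neither of them called.

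**Figure D3:**
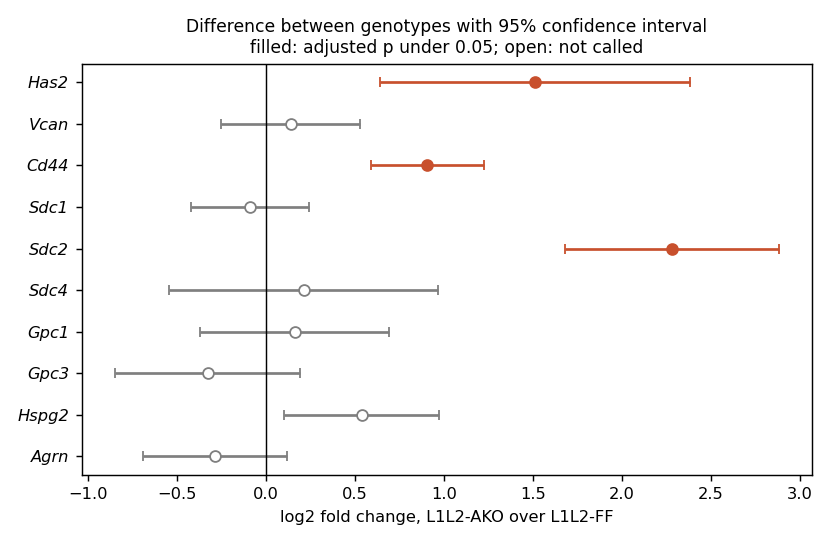
log2 fold change of each gene, libraries labelled L1L2-AKO over L1L2-FF, with the 95% confidence interval from edgeR. Filled red points passed an adjusted p of 0.05 (Has2, Cd44 and Sdc2), and the interval of Hspg2 lies above 0 although its adjusted p of 0.0949 did not pass.

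Markers of several cell types were present in the floated fraction. Summed markers of mature adipocytes were by far the most abundant list, at 20297 to 22421 CPM in L1L2-FF and 11551 to 14009 CPM in the libraries labelled L1L2-AKO, and 4 of 10 were called lower. The macrophage markers were given beside Cd44. Endothelial markers gave 2014 to 2709 CPM and 1162 to 2514 CPM in the same order of groups (1 of 10 lower), mural cell markers 1404 to 1909 CPM and 1474 to 1617 CPM (1 higher and 2 lower of 9), and markers of progenitors and fibroblasts 573 to 819 CPM and 453 to 552 CPM (2 of 10 lower). Schwann cell markers summed to 773 to 1665 CPM and 743 to 1376 CPM (1 higher and 4 lower of 8). Most of the sum in the libraries labelled L1L2-AKO came from Pmp22, the marker that was higher (603, 1005 and 1100 CPM), and the other 7 markers were lower without overlap, with log2 fold changes from -1.87 to -1.20. Markers of T and B cells summed to 9.06 to 29.4 CPM over all libraries (0 of 9 called by edgeR, 1 higher at an unadjusted p under 0.05, and 0 by DESeq2 or limma-voom). Those of skeletal muscle gave 3.55 to 20.7 CPM (0 of 6 tested called by edgeR, 2 lower at an unadjusted p under 0.05, 2 lower by DESeq2 and 1 by limma-voom). Those of mesothelial and epithelial cells gave 2.78 to 6.52 CPM (2 of 3 tested called higher, Krt19 and Wt1). The third, Cdh1, was lower without overlap and was not called (log2 fold change -1.77, edgeR adjusted p 0.0977). DESeq2 called 1 marker of this list lower, and limma-voom called 0 lower. The mesothelial markers Msln and Wt1 were at 0 in all 3 L1L2-FF libraries, so Wt1, with 27, 41 and 50 counts in those labelled L1L2-AKO, entered the test through the latter alone. Neutrophil and mast cell markers gave 69.4 to 93.2 CPM over all libraries, with 0 of 7 tested called by edgeR (1 lower at an unadjusted p under 0.05, and 0 by DESeq2 or limma-voom). The part of these cell types in the values of the 10 genes was not tested.

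**Figure D4:**
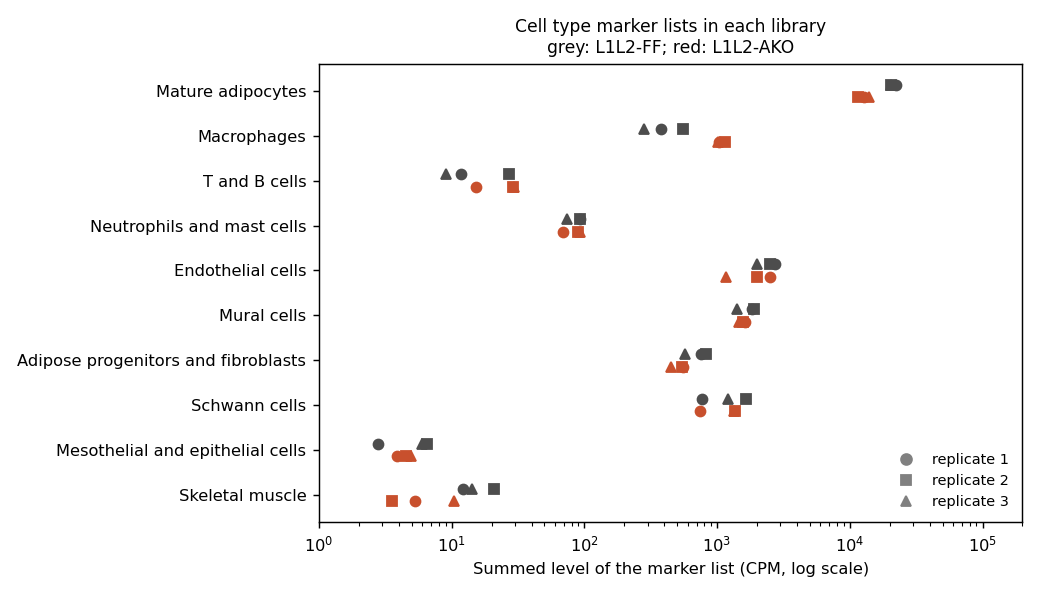
Summed level of 10 lists of cell type markers (CPM, log scale) in each of the 3 L1L2-FF libraries (grey) and the 3 libraries labelled L1L2-AKO (red), with 1 symbol per replicate number. Mature adipocyte markers are the most abundant list and are lower in the libraries labelled L1L2-AKO, and macrophage markers are higher in all 3 of them than in any L1L2-FF library.

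The genes around these 10, which make, cut, bind and modify the same chains, were examined as 116 pathway genes in 10 functional groups. Of these, 98 were tested, 21 were called higher, 5 lower and 72 neither, and 18 were too low to test. Cemip entered the test through its counts in the libraries labelled L1L2-AKO alone. Over all genes tested, the share called was 16.5% in either direction, 9.28% higher and 7.18% lower. The median log2 fold change of the 98 was 0.17.

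Hyaluronan turnover was called in both directions (3 of 10 higher, 2 lower). Beside Has2, the synthase Has3 fell from 3.26 ± 0.376 CPM to 0.897 ± 0.149 CPM (log2 fold change -1.85, edgeR adjusted p 0.00327), and Has1 was low in both groups, at 1.33 ± 0.760 and 1.28 ± 0.143 CPM. Cemip, whose product binds and depolymerizes hyaluronan, had 4, 0 and 2 counts in L1L2-FF, whereas the 3 libraries labelled L1L2-AKO held 193, 169 and 215. Its ratio was 97.6, with an exact interval of 44.6 to 267 that covers counting error only. Of the lysosomal enzymes, Hexa and Gusb rose by 0.91 and 0.61 on the log2 scale, and the hyaluronidase Hyal1 fell by 1.16 from 4.02 ± 0.685 CPM. Hyal1 shares 49.6% of its 50-base stretches with Naa80, which had a log2 fold change of -0.67, so the 2 genes cannot be told apart with certainty. Of the hyaluronan-binding proteins, 2 of 12 tested were called, both higher. They were Stab1, a scavenger receptor of macrophages and sinusoidal endothelium (log2 fold change 0.83, beside the macrophage marker rise, whose part was not tested), and Itih5, a matrix-stabilizing inter-alpha-trypsin inhibitor heavy chain (0.84). Itih5 kept its call in only 1 of the 6 fits that each left out a library (edgeR adjusted p up to 0.159), and Stab1 in 3.

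Among 12 tested other proteoglycan cores, 2 were higher and 2 lower. Gpc4 rose from 69.1 ± 21.7 to 190 ± 33.5 CPM (log2 fold change 1.46, edgeR adjusted p 0.00614) and Gpc6 rose by 0.90, so 2 glypicans outside the 10 genes were called and the 2 among them were not. Cspg4, the NG2 proteoglycan of pericytes, fell by 0.95, and Cspg5, with 56, 36 and 32 counts in the L1L2-FF libraries and 15, 13 and 2 in those labelled L1L2-AKO, fell by 2.04 (edgeR adjusted p 0.0450). The Cspg5 call was lost in all 6 fits that each left out a library (edgeR adjusted p from 0.0533 to 0.161), and the gene passed the filter through its L1L2-FF counts alone. Cspg4 kept its call in 2 of the 6 fits that each left out a library. Of 9 mural cell markers, 2 were called lower (Rgs5 and Higd1b) and 1 higher (Notch3), and their part in the Cspg4 value was not tested. Sdc3 was at 40.7 to 58.5 CPM in L1L2-FF and 49.1 to 78.9 CPM in the libraries labelled L1L2-AKO, without a call (edgeR adjusted p 0.304).

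In the linker that joins heparan sulfate to its core, 1 of 7 genes was called, the galactosyltransferase B4galt7 (log2 fold change 0.61). The libraries did not overlap for 2 of the 7 genes that were higher, B4galt7 among them, and for 2 that were lower. Over all genes tested, such separation was found upward in 18% and downward in 18.4%. In polymerization 1 of 4 tested genes was called, Ext1, the partner of Ext2 in the copolymerase, by 0.47, whereas Ext2 had a log2 fold change of -0.06. B4galt7 kept its call in 2 and Ext1 in 3 of the 6 fits that each left out a library. In heparan sulfate modification, which includes sulfation, 3 of 10 tested genes were called, all higher. These were the N-deacetylase and N-sulfotransferase Ndst1 (0.59) and the 6-O-sulfotransferases Hs6st1 (0.78) and Hs6st2, which rose from 4.47 ± 1.03 to 26.4 ± 9.44 CPM (log2 fold change 2.56, edgeR adjusted p 0.00155). Hs6st1 kept its call in 2 and Ndst1 in 3 of the 6 fits that each left out a library. Sulf1, an extracellular enzyme that removes 6-O-sulfate again, rose from 18.3 ± 5.41 to 198 ± 47.7 CPM (log2 fold change 3.43, edgeR adjusted p 0.000345). Its paralogue Sulf2, at 260 ± 19.9 and 221 ± 28.6 CPM, was not called. Of 9 tested genes of heparan sulfate remodelling and degradation, 3 were called, all higher, among them Sulf1 and the lysosomal enzyme Naglu (0.77).

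Chondroitin and dermatan sulfate, the chains that versican carries, showed 4 of 16 genes called, all higher. They were the polymerizing factors Chpf (log2 fold change 1.46) and Chsy3 (1.304) and the dermatan sulfate epimerases Dse (1.37) and Dsel (0.55). Dsel kept its call in only 1 of the 6 fits that each left out a library. Among 6 proteases that cut versican, Adamts5 rose from 106 ± 21.4 to 1549 ± 318 CPM (log2 fold change 3.88, edgeR adjusted p 0.000180) and Adamts1 from 232 ± 33.2 to 534 ± 95.8 CPM (1.20), while Adamts20 fell by 1.90 from 6.51 ± 4.14 CPM. The Adamts20 call was kept in only 1 of the 6 fits that each left out a library (edgeR adjusted p up to 0.129, log2 fold change from -2.32 to -1.26), and limma-voom gave an adjusted p of 0.0642. Vcan itself was not called, as given above. The supply of sugar nucleotides and activated sulfate was called for 0 of 12 genes by edgeR, with 1 higher and 0 lower at an unadjusted p under 0.05, 1 higher by DESeq2 and 0 by limma-voom.

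**Figure D5:**
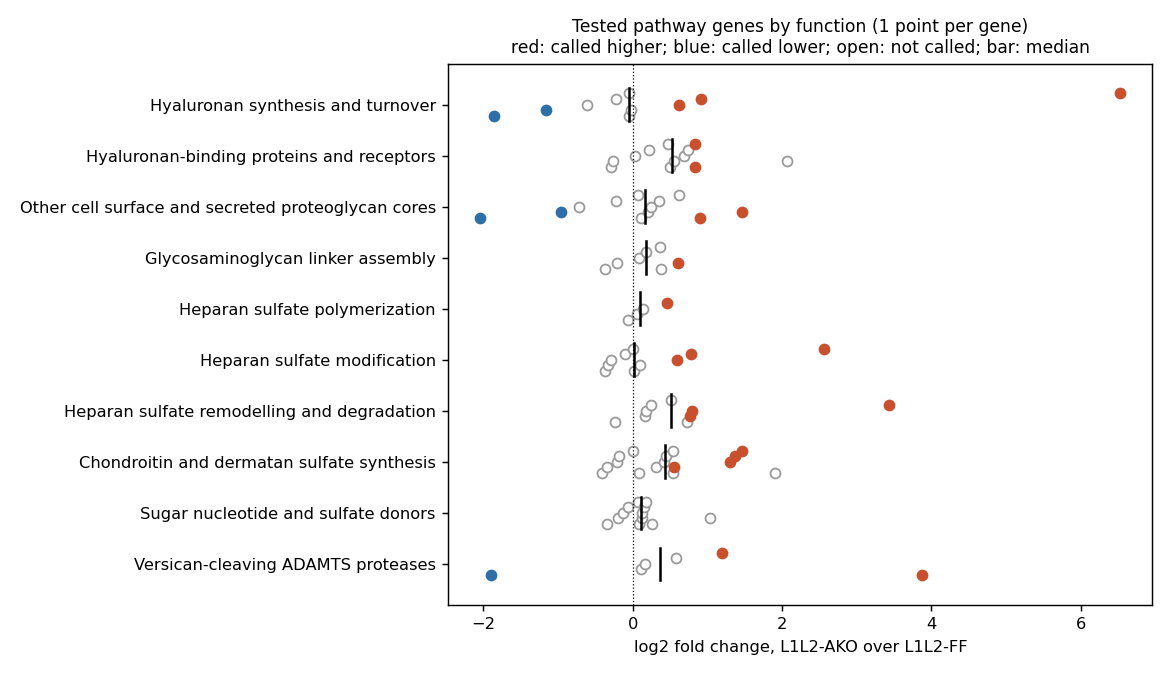
log2 fold change (libraries labelled L1L2-AKO over L1L2-FF) of the 98 tested pathway genes in 10 functional groups, 1 point per gene, with the group median as a bar. Red points were called higher (21), blue points lower (5) and open points not at all (72), and Cemip, Adamts5 and Sulf1 lie farthest to the right.

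These pathway calls rested unevenly on the libraries. Of the 26, the number that kept its call after 1 L1L2-FF library was left out was 14 (replicate 1), 23 (replicate 2) or 20 (replicate 3). For the L1L2-AKO libraries it was 20 (replicate 1), 10 (replicate 2) or 12 (replicate 3). Sulf1, Adamts1, Adamts5, Hexa, Gpc4, Has3, Chpf, Dse, Cemip and Hs6st2 were called in all 6 of these fits. Gusb, Hyal1 and Naglu were called in 3 of them, Gpc6 in 4 and Chsy3 in 5.

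Promoter windows were searched for the core motif of TEAD factors, the DNA-binding partners of YAP and TAZ (GGAATG), and for the AP-1 motif (TGANTCA), on both strands of the 250 bases before each RefSeq start (GRCm38.p6). Windows were at hand for Vcan, Cd44, Sdc1, Sdc4, Gpc3, Hspg2 and Agrn, with 2 windows for Agrn, and 0 of these 8 windows held either motif, beside 12.6% (TEAD) and 6.75% (AP-1) of 32851 windows of all genes. Has2, Sdc2 and Gpc1 were not searched. Among 92 pathway genes with a window, the TEAD core was found in 2 of 14 called higher, 0 of 3 called lower, 10 of 60 not called and 4 of 15 not tested. A match is a string of letters and not a bound site. The match in Gpc4, the called glypican with the largest change, is printed with the core in capitals, as the minus-strand sequence at chrX:52165039-52165064, in which the core reads in the opposite direction. This stretch lies before the RefSeq start but inside the Gpc4 gene of GENCODE M21 (chrX:52053021-52165252), past its annotated start. Likewise, the windows of Sdc4 and 1 of the 2 of Agrn lie inside their GENCODE genes, and those of Sdc1 and Hspg2 do so in part.
Gpc4: gtcccgcgccCATTCCacgccttttt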

How the data were processed

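The authors sequenced poly(A)-selected RNA as paired ends on a BGISEQ-500 and aligned the reads to mm10 with HISAT2 2.1.0, followed by StringTie 1.3.5 (submitters' processing notes). What the authors deposited is a table of raw, unnormalized counts with 1 row per gene symbol, of which 0 name no gene. The counting program, annotation and strand setting were not given in the sources used here. Genotypes and replicate numbers come from the labels.

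Counts were tested in R 4.3.3 with edgeR 4.0.16 (filterByExpr with minimum count 10 and minimum total count 15, TMM, quasi-likelihood test, two-sided, Benjamini-Hochberg adjustment over 15674 genes, threshold 0.05). The filter left out 21710 genes. Alternatives used DESeq2 1.42.0 and limma-voom (limma 3.58.1), other normalizations and filters, a replicate block and leaving out each library. CPM are TMM-normalized, and TPM use GENCODE M21 exon lengths (36888 symbols matched directly, 386 through a synonym). Family shares were compared by exact permutation, which with 3 against 3 libraries cannot go below 0.1.

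On simulated counts for this comparison (15725 genes), 67% of 2-fold and 99% of 4-fold changes were recovered, with 9 false among 175 calls. The simulation gave every gene the same spread between libraries and changed only genes that were not low in counts. It also changed a much smaller share of genes than was called in the real libraries. Its rates may therefore differ from those in the real libraries. At totals of 30548473 to 32107917 counts, a floor of 3 counts was set, but it entered no filter, test or ratio. The 10 genes and all lists were chosen with earlier results of these data known. All 10 genes are reported. Of the pathway groups, the genes past the threshold were named, and others where a sentence on their family needed them. Of the genes drawn by this rule, some are not reported here.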

Additional observations from a re-analysis of the deposited data

How the results depend on the processing

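Sdc2 and Cd44 were called higher in all 14 alternative fits, and 0 of the 10 genes were called lower in any. Has2 was not called by limma-voom (adjusted p 0.0709) or in 5 of the 6 fits that left out a library, and Hspg2 was called by DESeq2 only. Over the fits without 1 library, the genes called in the whole table numbered 1281 to 2845 (2580 with all libraries), with the fewest without L1L2-AKO replicate 2 (1281), L1L2-FF replicate 1 (1290) and L1L2-AKO replicate 3 (1374). In these fits 2 to 3 of the 10 genes were called higher and 0 lower, and 10 to 22 pathway genes were higher and 1 to 4 lower. The lowest pathway counts came without L1L2-AKO replicate 2 (10 higher, 1 lower), L1L2-AKO replicate 3 (11 and 1) and L1L2-FF replicate 1 (12 and 2), and without L1L2-AKO replicate 1 the lower count was 3. The sign turned for Gpc1 without L1L2-AKO replicate 1 (log2 fold change -0.12, in a range up to 0.30) and for Sdc4 without L1L2-AKO replicate 3 (-0.013, in a range up to 0.63). These fits have fewer samples. Other settings called 2413 to 3370 genes, 19 to 27 pathway genes higher and 4 to 5 lower. A filter of at least 10 counts in every library removed Cemip and Cspg5. Same-numbered libraries deviated from their group means with correlations of 0.19, 0.26 and -0.05 and so were not treated as pairs. With a replicate block, 2514 genes were called, 3 of the 10 genes and 22 pathway genes higher, and 5 pathway genes lower.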

Other observations

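Several pairs of related genes were compared as ratios of counts per exon length, chosen after their values were seen and given without a test. Sulf1 over Sulf2 was 0.0363 ± 0.00807 (SD, n = 3) in L1L2-FF and 0.468 ± 0.0956 in the libraries labelled L1L2-AKO, so Sulf2 transcripts remained the more abundant in every library. Adamts5 over Adamts1 was 0.225 ± 0.0451 and 1.43 ± 0.191, and all 3 libraries labelled L1L2-AKO lay above 1. Hs6st2 over Hs6st1 was 0.114 ± 0.0318 and 0.383 ± 0.0611. Has2 over Has3 was 0.969 ± 0.186 in L1L2-FF, whereas those labelled L1L2-AKO gave 4.17, 15.5 and 12.3. Vcan over Adamts5 was 0.611 ± 0.143 and 0.0464 ± 0.0127.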
